A study of Mus musculus with 2 samples.

Results

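The Pax genes encode transcription factors that bind DNA through a paired domain, and 8 of them were followed here through the cells of mid-gestation mouse embryos: Pax1, Pax2, Pax3, Pax5, Pax6, Pax7, Pax8 and Pax9. They were found by gene symbol among 21937 gene features, and all 8 had counts. At least 1 UMI (a unique molecular identifier, standing for 1 captured transcript) of any of these genes was present in 2395 of 5678 cells (42.2%), and UMIs of 2 or more of them in 890 cells (15.7%).

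The family falls into subgroups of close relatives, Pax1 with Pax9, Pax2 with Pax5 and Pax8, Pax3 with Pax7, and Pax6 with the endocrine gene Pax4. Pax1 and Pax9 act in the sclerotome, the somite part that forms vertebrae and ribs, and in the pharyngeal pouches. Pax2, Pax5 and Pax8 act at the boundary of midbrain and hindbrain, in inhibitory interneurons of the hindbrain and spinal cord, and in kidney, thyroid and B cells. Pax3 and Pax7 mark the dorsal neural tube, muscle progenitors and neural crest, and Pax6 acts in the eye, the forebrain and the intermediate and ventral neural tube.

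The cells came from E11.5 transgenic embryos that carried EGFP, linked to a DNA barcode, under the CAG promoter, delivered by piggyBac transposition. There were 4 cell suspensions: F0_8 and F0_9, each from 1 founder embryo, F1_1, from 1 F1 embryo, and F1_mix, which mixed cells of 2 F1 embryos as a pseudo-mosaic and is counted here as 1. All 4 carried the transgene, so no comparison without it could be made. They were tagged with multiplexing oligos, pooled and captured in 1 droplet run with 3′ chemistry, and no embryo was captured in a second suspension, so p-values measure only the spread between these suspensions.

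The 4 suspensions held 1310 to 1599 cells and 16052917 to 19160116 gene UMIs each, with medians of 10880 to 13267 UMIs per cell, and no barcode was shared between suspensions. Cells are named by the 16 types of the authors' own annotation. In 4 of these, Endodermal Progenitor, Foregut, Hepatocyte and Midgut, the median cell had 721.5 to 1674 UMIs, more than 3 times below the median of all cells (12071.5), and mitochondrial genes made up a median of 23.0% to 55.9% of UMIs, against at most 2.76% in the other 12 types. Markers did not always follow the names: in Midgut cells 8 genes of differentiating neurons summed to 30.4 to 45.5 UMIs per 10000 across suspensions and 8 epithelial genes to 0.156 to 0.443, whereas Epithelial Cell gave 1.30 to 3.28 and 17.8 to 26.2 for the same lists. Neuroectoderm/Glia cells also carried the neuronal list, at 91.1 to 118 per 10000. The shallow types are therefore kept apart below.

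Levels are given as UMIs of a gene per 10000 gene UMIs, summed over the cells of a type in a suspension, as mean ± SD over the 4 suspensions. A 3′ count does not grow with gene length, and capture differs between genes, so levels are compared between cell types and not between genes. A level summed over cells cannot tell fewer expressing cells from less RNA per cell. The cell types were built by the authors from these same cells, so differences between types are described without a test.

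Pax3 was the most widely found member, with 5857 UMIs in 1039 cells (18.3%). Pax2 followed with 3182 UMIs in 497 cells (8.75%), then Pax6 with 1177 UMIs in 458 cells, Pax7 with 999 in 442, Pax9 with 1081 in 367, Pax1 with 1570 in 273, Pax5 with 745 in 262 and Pax8 with 709 in 215. Counts were sparse: between 28.6% (Pax1) and 48.9% (Pax5) of the cells that held a gene held a single UMI of it. A UMI in a cell can also come from free RNA or from a doublet, which were not told apart. In the 204 red blood cells (Erythroblast and Erythrocyte, median 27491.5 UMIs per cell), which should hold no Pax transcript, Pax2 was present in 5.39%, Pax3 in 3.43%, Pax9 in 2.94%, Pax8 in 0.980%, and Pax1 and Pax5 in 0.490% each. Pax6 and Pax7 were present in 0 of 204, with an exact binomial upper bound of 1.79% at 95% confidence; such intervals cover counting error only.

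**Figure D1:**
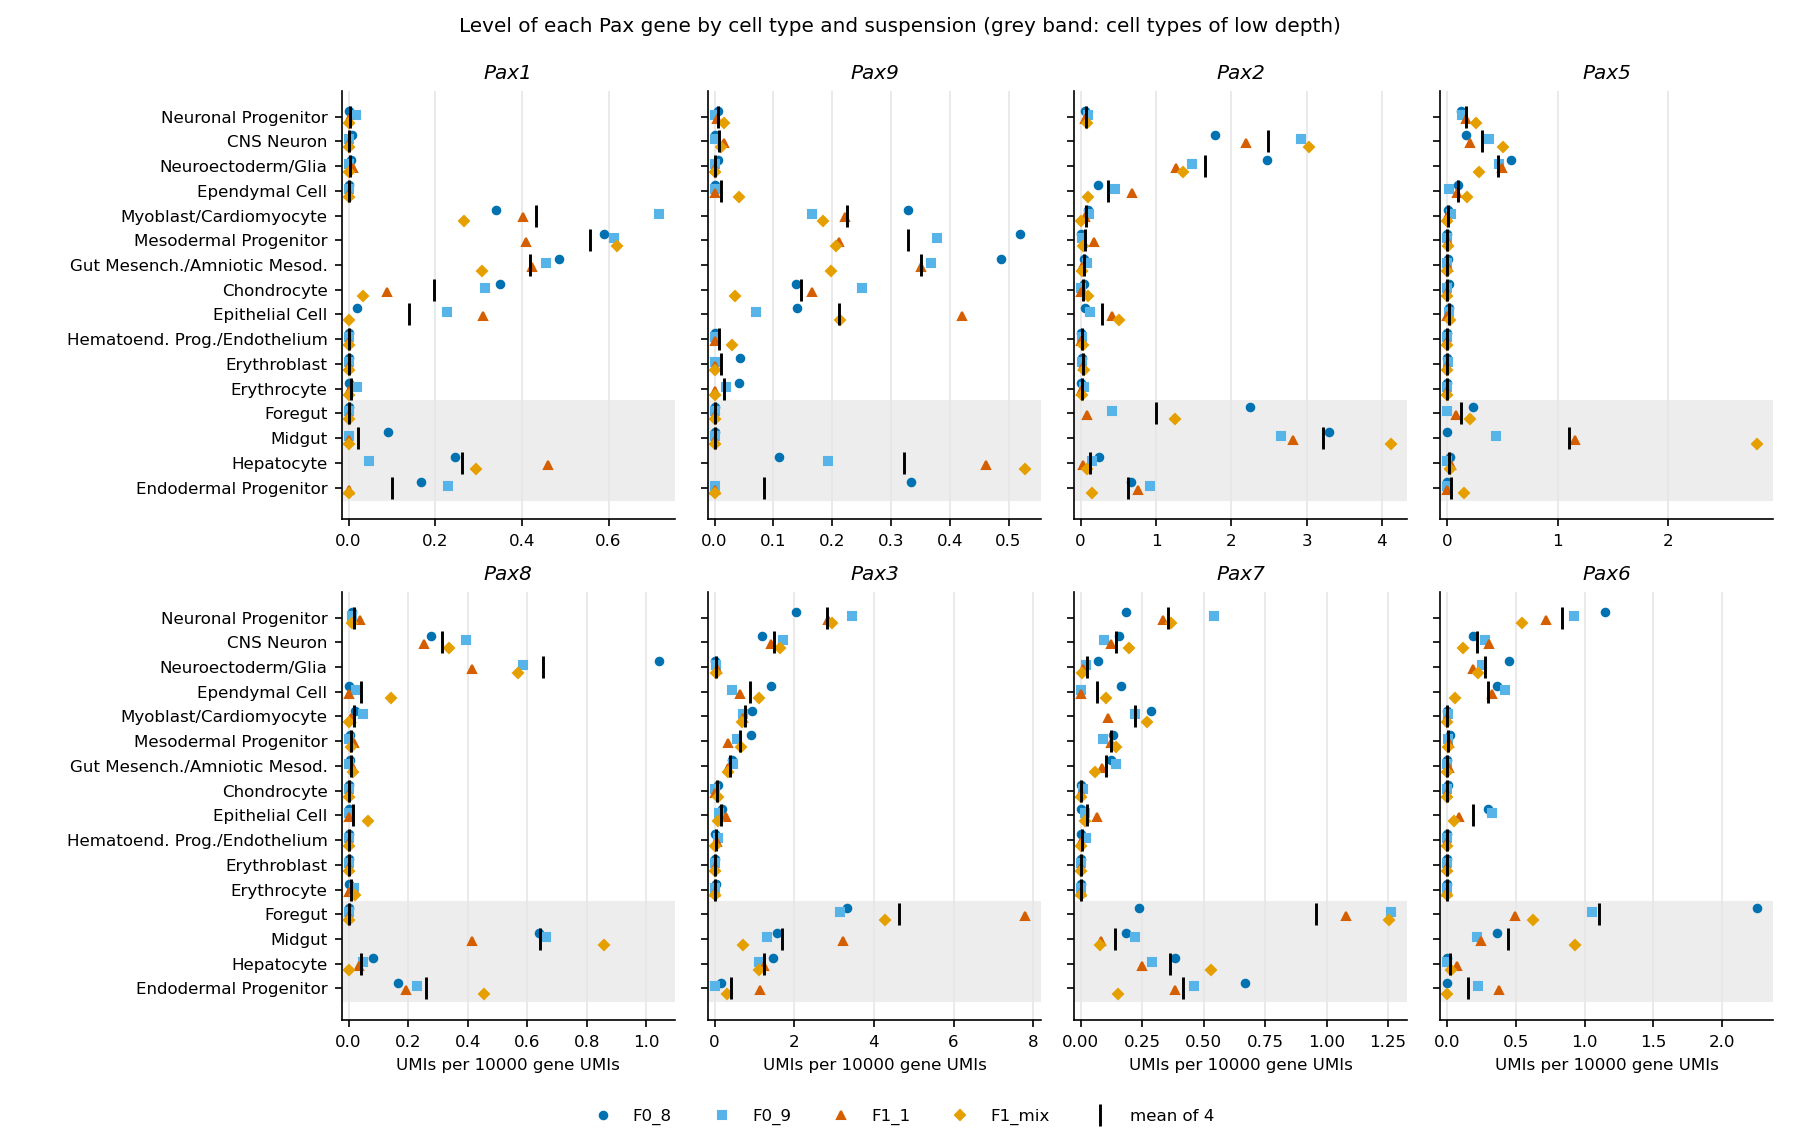
Level of each Pax gene (x axis, UMIs per 10000 gene UMIs, with its own range for each gene) in the 16 cell types (y axis), with 1 point per suspension and a black bar for the mean of 4; the grey band holds the 4 shallow types. Among the other types the highest mean was in Mesodermal Progenitor for Pax1, Gut Mesenchyme/Amniotic Mesoderm for Pax9, CNS Neuron for Pax2, Neuroectoderm/Glia for Pax5 and Pax8, and Neuronal Progenitor for Pax3, Pax7 and Pax6 (0.835 for Pax6), and points of neighbouring types often overlap.

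Over all types pooled, relatives, and some members that are not relatives, were found in the same cells. Of 442 cells with Pax7, 76.9% also held Pax3, against 13.3% of cells without Pax7. Of 215 cells with Pax8, 72.1% held Pax2 (6.26% without Pax8) and 40.9% held Pax5 (3.19% without). Of 262 cells with Pax5, 46.2% held Pax2 (6.94% without Pax5). For Pax1 and Pax9, 39.2% of Pax1 cells held Pax9 (4.81% without Pax1) and 29.2% of Pax9 cells held Pax1 (3.13% without). In the opposite direction, 32.7% of Pax3 cells held Pax7, 31.2% of Pax2 cells held Pax8, 24.3% of Pax2 cells held Pax5 and 33.6% of Pax5 cells held Pax8; differences between pairs were not tested. Between members that are not relatives, 32.3% of Pax6 cells held Pax3 (17.1% without Pax6) and 15.8% of Pax7 cells held Pax6 (7.41% without Pax7), both higher in 4 of 4 suspensions. These shares pool cells of all depths and types, and they are broken down by type below.

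**Figure D2:**
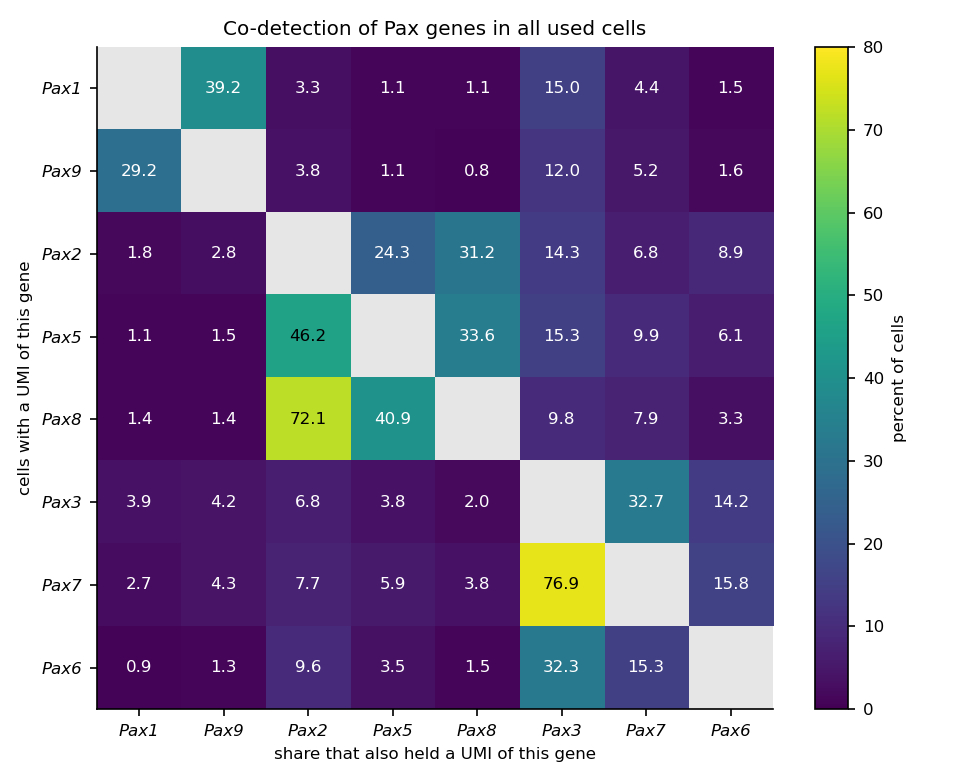
Percent of cells with a UMI of the row's gene that also held a UMI of the column's gene, over all 5678 cells. The highest shares join Pax7 to Pax3 (76.9%) and Pax8 to Pax2 (72.1%).

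Pax1 and Pax9, the sclerotome and pharyngeal pair, were highest in 3 mesodermal types. In Mesodermal Progenitor, Pax1 was at 0.589, 0.612, 0.409 and 0.620 per 10000 in F0_8, F0_9, F1_1 and F1_mix (0.558 ± 0.0997; 14.5% of 496 cells). In Myoblast/Cardiomyocyte it was at 0.432 ± 0.198 (10.4% of 644 cells), and in Gut Mesenchyme/Amniotic Mesoderm at 0.418 ± 0.0787 (11.4% of 674 cells). The suspensions of these 3 types overlapped, so their order is not settled by the spread. Chondrocyte followed at 0.197 ± 0.159 (8.11% of 296 cells). With every cell thinned to 2000 UMIs the shares of cells with Pax1 were 6.65%, 5.28%, 6.39% and 3.72% in the same 4 types.

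Pax9 was at 0.487, 0.368, 0.351 and 0.198 in Gut Mesenchyme/Amniotic Mesoderm (0.351 ± 0.118; 15.4% of cells), in the same order of suspensions, and at 0.519, 0.379, 0.212 and 0.207 in Mesodermal Progenitor (0.329 ± 0.150; 16.7%). Both founders were above both F1 suspensions in each of these types. Myoblast/Cardiomyocyte held 0.225 ± 0.0731 and Epithelial Cell 0.211 ± 0.152, where F1_1 (0.421) was far above F0_9 (0.0698). All these neighbours in the order overlapped. Over the means of the 12 types of usual depth, the genes whose pattern was most like that of Pax1 were Pax9 (Pearson r = 0.97 of log2 levels, pseudocount 0.1), Osr2 (0.97) and Meox2 (0.97); for Pax9 they were Pax1, Amot (0.97) and Osr2 (0.96). These correlations describe 12 types that share 1 library.

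To see which genes went with a Pax gene inside a cell type, cells with 1 or more UMIs of it (positive) were compared with cells with none (negative). Counts were summed per suspension and arm, all genes were fitted with edgeR's quasi-likelihood test with the suspension as a block, and p-values were adjusted over all genes of the split (Benjamini-Hochberg, threshold 0.05). A negative cell may still hold the transcript, and the gene that split the cells was left out. Splits were limited to at most 2 types per gene, those of usual depth with the most positive cells among types with 10 or more cells in each arm of each suspension, which gave 13 splits; Pax8 had none. Of 41 pairs of a split and another member with enough counts to test, 18 passed, beside 2.9% of the 113770 pairs of a split and a gene.

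In Mesodermal Progenitor, 72 Pax1-positive and 424 negative cells were compared (medians 18469 and 18904 UMIs). Pax9 was at 0.904, 1.44, 0.800 and 0.707 per 10000 in the positive arms and at 0.447, 0.202, 0.148 and 0.102 in the negative arms. Every positive arm was above every negative one, with a log2 fold change of 2.19 (SE 0.28, adjusted p = 0.00108). It was the 1 member called of 3 tested there, where 0.87% of all 9195 genes were called higher and 0.402% lower. By cells, 32 of 72 Pax1 cells held Pax9 (44.4%, exact 95% interval 32.7% to 56.6%), against 12.03% of cells without Pax1, and the share was higher in 4 of 4 suspensions. Thinned to 2000 UMIs it was 21.2% against 3.89%.

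The sclerotome and cartilage list went with Pax1 in these cells: 6 of its 9 tested genes were higher and 0 lower, with a median log2 fold change of 1.33 against 0.0041 over all genes. Uncx, a homeobox gene of the posterior sclerotome, was at 1.29 against 0.0756 (log2 4.16 ± 0.27 SE, adjusted p = 3.14e-06), Col2a1, the cartilage collagen, at 5.50 against 1.73, and Foxc1 at 0.975 against 0.341. The chondrogenic factor Sox9 was at 3.78 against 1.97. The largest changes in the same direction in all 4 suspensions were Uncx, the adhesion receptor gene Adgrg6 (0.443 against 0.0358) and Tbx1, a pharyngeal regulator (0.722 against 0.0879), and downward the motor neuron and heart field gene Isl1 (1 UMI against 152) and Hand2, a limb and heart regulator (0.0384 against 0.500). Tbx1 was the 1 of 7 pharyngeal and facial genes that was higher, with 0 lower (1 lower without F0_8) and a list median of log2 -0.16.

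In Gut Mesenchyme/Amniotic Mesoderm (77 Pax1-positive cells, median 13761 UMIs, and 597 negative, 13320), 0 of 2 members tested passed. Pax9 was at 0.714, 0.800, 0.886 and 0.318 in positive and 0.457, 0.302, 0.300 and 0.185 in negative arms, higher in 4 of 4 suspensions, with a log2 fold change of 1.08 (SE 0.25, adjusted p = 0.0771). Over all 8980 genes, 0.423% were higher and 0.278% lower, and 675 had an unadjusted p under 0.05. Tbx1 (0.901 against 0.120), the tetratricopeptide gene Ttc6 (0.252 against 0.0236) and Pfkp, a glycolytic enzyme gene (0.241 against 0.028), led upward; Ptprt (0.0201 against 0.620) and Crym (0.0397 against 0.768) led downward. Of 7 pharyngeal and facial genes Tbx1 was higher and 0 lower (median log2 -0.15, 0 higher without F0_9, F1_1, F1_mix or the block). Uncx and Col2a1 were the 2 of 10 sclerotome and cartilage genes that were higher. The 63 calls fell to 38 without F0_8 and to 26 without F1_mix, and the 2 list calls to 0 without F1_mix and to 1 without F0_8, F1_1 or the block.

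Split by Pax9, the same type gave 104 positive and 570 negative cells (medians 12689 and 13478 UMIs). Pax1 was at 1.79, 1.13, 2.04 and 0.298 in positive arms and 0.273, 0.312, 0.127 and 0.309 in negative ones. It was higher in 3 of 4 suspensions, and in F1_mix the arms did not differ in that direction. The log2 fold change was 2.27 (SE 0.38, adjusted p = 0.0195), and the call was lost without F0_8 (adjusted p = 0.145) and by DESeq2 (adjusted p = 0.232). Pax1 was 1 of 2 members tested; 0.425% of 8941 genes were higher and 0.436% lower. Of 10 sclerotome and cartilage genes, Col2a1, Sox9 and Foxc1 were higher; 1 remained called without F0_8, F0_9 or F1_mix, or without the block. Of 7 pharyngeal and facial genes Tbx1 was higher and 0 lower (median log2 0.58, 2 higher without F0_8 and 0 without the block). Emx2, a gene of the urogenital ridge and forebrain, had 0 UMIs against 268, at least 15.6-fold lower, taking 3 counts over the arm as the floor, and Rspo1, a Wnt agonist gene, had 1 UMI against 265. All calls numbered 77, 46 without F0_8 and 41 without F1_mix.

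In Myoblast/Cardiomyocyte (92 Pax9-positive cells, median 16725.5 UMIs, and 552 negative, 18826.5), Pax1 was at 0.743, 1.62, 2.06 and 1.46 against 0.261, 0.588, 0.157 and 0.102. All positive arms lay above all negative ones (log2 2.76, SE 0.31, adjusted p = 3.6e-05). It was the 1 of 3 members tested that passed, with 0.638% of 8936 genes higher and 1.78% lower. Of 9 sclerotome and cartilage genes 7 were higher and 0 lower (median log2 1.03; 4 higher without the block), led by Foxc2 (0.552 against 0.104) and Meox1 (1.79 against 0.398), both regulators of somite mesoderm. Of 7 pharyngeal and facial genes Barx1 and Msx1 were higher and 0 lower (median log2 0.24, 1 higher without F1_1 or F1_mix or by DESeq2, and 0 without the block or with 2 or more UMIs asked of positive cells). Of 9 skeletal muscle genes 5 were lower and 0 higher (2 lower without the block), among them the muscle regulators Myod1 (0.0422 against 0.745) and Myog (0.203 against 2.24). The giant sarcomere protein gene Neb had 0 UMIs against 425, at least 21.4-fold lower, and the actin gene Actc1 had 1 against 2441. Of 6 neural crest genes 4 were lower; the list summed to 0.605 to 0.810 per 10000 in positive and 1.16 to 1.75 in negative arms. Of 5 neural progenitor genes 3 were lower (Fabp7, Nes and Vim; median log2 -0.69), and the list summed to 3.73 to 5.23 in positive and 7.07 to 9.48 in negative arms. Of 5 postmitotic neuron genes Tubb3 and Map2 were lower (median log2 -1.11; 0 lower without the block, 1 by DESeq2 or without F0_9, F1_1 or F1_mix), with sums of 0.608 to 1.17 against 1.16 to 2.60. The part of these lists in the muscle difference was not tested. Of 5 red blood cell genes tested, 3 were lower (Hbb-y, Hba-x and Hbb-bt). This list summed to 0.869 to 1.45 in positive and 1.06 to 83.9 in negative arms, and 0 of its genes were called without F0_9, without the block or by DESeq2; its part in the other differences was not tested.

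Slc25a21, a mitochondrial carrier gene, led the genes that were higher in both Pax9 splits. In Gut Mesenchyme/Amniotic Mesoderm it was present in 36 of 104 Pax9 cells (34.6%) and 20 of 570 others (3.51%), a log2 fold change of 4.67 (SE 0.26, adjusted p = 5.76e-06), and in Myoblast/Cardiomyocyte in 25 of 92 (27.2%) and 24 of 552 (4.35%), a log2 fold change of 3.18 (SE 0.40, adjusted p = 9.05e-05). On GRCm38.p6 in the RefSeq annotation, Pax9 lies at chr12:56691693-56712824 on the plus strand and Slc25a21 at chr12:56712634-57197472 on the minus strand, so that they share 191 bases. Whether reads of the shared stretch could be assigned to the wrong gene was not tested.

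Pax2, Pax5 and Pax8, regulators of the midbrain-hindbrain boundary and of inhibitory interneurons, were concentrated in the 2 neuronal types of usual depth. Pax2 was at 1.79, 2.93, 2.20 and 3.03 per 10000 in CNS Neuron (2.49 ± 0.595; 23.7% of 532 cells) and at 2.48, 1.48, 1.27 and 1.36 in Neuroectoderm/Glia (1.65 ± 0.561; 24.5% of 502 cells). These 2 types overlapped, and every suspension of Neuroectoderm/Glia was above every suspension of the next, Ependymal Cell (0.365 ± 0.257). Thinned to 2000 UMIs, 17.3% of CNS Neuron and 15.7% of Neuroectoderm/Glia cells still held Pax2. Epithelial Cell held 0.279 ± 0.221 (0.0603, 0.122, 0.421 and 0.511), with both founders below both F1 suspensions.

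Pax8 was at 1.04, 0.585, 0.414 and 0.569 in Neuroectoderm/Glia (0.653 ± 0.271; 18.3% of cells) and at 0.277, 0.393, 0.252 and 0.338 in CNS Neuron (0.315 ± 0.0633; 9.40%). Each of these types was above the next in every suspension without overlap, and Ependymal Cell, the third, was at 0.0418. Together the 2 types held 58.4% and 27.6% of all Pax8 UMIs. Pax5 was at 0.581, 0.469, 0.495 and 0.292 in Neuroectoderm/Glia (0.459 ± 0.121; 19.1%) and at 0.178, 0.381, 0.206 and 0.510 in CNS Neuron (0.319 ± 0.156; 11.8%), with overlap, and at 0.175 ± 0.0629 in Neuronal Progenitor (7.04%).

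Patterns most like Pax2 over the 12 types were those of Klhl14, Olfm2 and Pnma2 (r = 0.97 each), those most like Pax5 were Scg5, Soga3 and Akap6 (0.99 each), and those most like Pax8 were St8sia3, Chgb and Ina (0.99 each). Several of these are broad neuronal genes, such as Ina, an intermediate filament gene, and Chgb and Scg5, genes of the secretory granule.

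Pax2 and Pax8 are shown with the 250 bases before their outermost annotated starts (RefSeq, GRCm38.p6, read 5′ to 3′ on the strand of the gene), because these 2 genes were found together in the same neurons. Any other annotated starts of these genes were not examined. Capitals mark matches, on either strand, to the TATA box (TATAAA), the CCAAT box (CCAAT) and the GC box (GGGCGG), which 12.4%, 33.8% and 32.7% of 32851 such windows hold.
Pax2, chr19:44746351-44746600, plus strand: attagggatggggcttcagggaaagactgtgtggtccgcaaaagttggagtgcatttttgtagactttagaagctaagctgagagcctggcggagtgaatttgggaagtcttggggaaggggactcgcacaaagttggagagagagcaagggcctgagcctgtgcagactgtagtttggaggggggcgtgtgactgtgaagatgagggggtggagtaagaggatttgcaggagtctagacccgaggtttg
Pax8, chr2:24475600-24475849, minus strand: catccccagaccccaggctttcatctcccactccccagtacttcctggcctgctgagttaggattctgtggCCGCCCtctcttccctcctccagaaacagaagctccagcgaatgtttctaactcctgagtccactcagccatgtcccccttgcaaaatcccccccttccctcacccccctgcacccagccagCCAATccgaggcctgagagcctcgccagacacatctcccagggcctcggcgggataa

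The Pax2 window held none of the 3 motifs and had 52.8% G or C, close to the median window (52.4%). The Pax8 window held a CCAAT box 57 to 53 bases and a GC box, as CCGCCC on the opposite strand, 179 to 174 bases before the start, and had 60.4% G or C. A match is a description of letters and not a site shown to be used.

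Within CNS Neuron, 126 Pax2-positive and 406 negative cells were compared (medians 10809.5 and 10949.5 UMIs). Pax8 was at 1.97, 1.63, 0.957 and 1.23 in positive arms and 0.00827, 0.0158, 0.0303 and 0 in negative arms, a total of 190 UMIs against 6 (log2 6.66, SE 0.37, adjusted p = 9.04e-08). It led the genes that were higher in all 4 suspensions. Pax5 was at 0.518, 1.24, 0.797 and 1.54 against 0.124, 0.119, 0.0202 and 0.119 (log2 3.42, SE 0.31, adjusted p = 8.6e-06). For both genes all positive arms lay above all negative ones. They were the 2 of 5 members tested that passed, where 2.69% of 8053 genes were higher and 2.5% lower. Of 50 Pax8 cells in this type 45 held Pax2 (90.0%, exact 95% interval 78.2% to 96.7%), against 16.8% without Pax8, and thinned to 2000 UMIs 21 of 23 did (91.3% against 14.0%).

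All 7 tested genes of the inhibitory neuron list were higher in Pax2-positive CNS Neuron cells (median log2 2.43). Slc6a5, the glycine transporter, was at 1.54 against 0.0595 (log2 4.66 ± 0.27 SE, adjusted p = 1.07e-07), Gad2 and Gad1, the GABA-synthesising enzymes, at 3.21 against 0.636 and 1.13 against 0.305, and the interneuron factors Lhx1 and Lhx5 at 6.10 against 0.808 and 5.42 against 0.973. Of 8 genes of excitatory and other neurons 7 were lower and 0 higher (median log2 -3.18): Isl1, of motor and sensory neurons, was at 0.0862 against 3.18, Pou4f1, of sensory neurons, at 0.133 against 1.67, Tlx3, a switch to the excitatory fate, at 0.340 against 2.05, and Slc17a6, the glutamate transporter, at 0.152 against 0.834. All 4 tested forebrain genes were lower. Midbrain-hindbrain genes were divided, with En1 (0.828 against 0.0779) and Gbx2 higher and Otx2 and Lmx1b lower among 6 (1 lower without any 1 suspension or the block). Klhl14 (1.09 against 0.0256) and Lamp5 (1.29 against 0.0331) followed Pax8 upward, and Ppp1r1c and Eomes had 0 UMIs in positive arms, at least 28.3-fold and 12.9-fold lower. Of 7 neural progenitor genes Sox2 and Vim were lower (median log2 -0.51, 1 without F0_9, and 7 with 2 or more UMIs asked of positive cells), with sums of 9.89 to 13.5 per 10000 in positive and 13.5 to 17.9 in negative arms. Of 8 postmitotic neuron genes Dcx was higher (not without F0_9 or F1_mix, nor by DESeq2; 3 were higher with 2 or more UMIs), with sums of 85.3 to 90.7 against 70.1 to 83.3. The part of these lists in the other differences was not tested. The split gave 418 calls, and 239 without F0_9.

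In Neuroectoderm/Glia, 123 Pax2-positive and 379 negative cells were compared (medians 10404 and 11701 UMIs). Pax8 was at 3.59, 2.61, 2.02 and 2.54 against 0, 0.0441, 0.0127 and 0.108 (log2 6.01, SE 0.40, adjusted p = 8.51e-06), and Pax5 at 1.24, 0.824, 1.26 and 0.884 against 0.311, 0.375, 0.304 and 0.153 (log2 1.85, SE 0.22, adjusted p = 0.000612), without overlap of the arms. Pax6 was lower, at 0.111, 0, 0 and 0.0384 against 0.592, 0.323, 0.241 and 0.271, again without overlap (log2 -2.98, SE 0.45, adjusted p = 0.00282). All 3 members tested passed, in a split where 1.9% of 7988 genes were higher and 2.04% lower. Of 92 Pax8 cells 85 held Pax2 (92.4%, 85.0% to 96.9%), against 9.27% without Pax8, and of 123 Pax2 cells 85 held Pax8 (69.1%). Thinned, 66.0% of Pax8 cells held Pax2 (9.80% without Pax8).

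All 7 inhibitory genes tested were higher (median log2 2.13), with Slc6a5 at 2.87 against 0.212 and Lbx1, a dorsal interneuron factor, at 0.967 against 0.0918. All 7 excitatory genes tested were lower (median log2 -3.57), with Isl1 at 2 UMIs against 556. All 5 forebrain genes tested were lower, and 2 of 4 without F0_8. Adamtsl1 (2.16 against 0.120) and the corepressor gene Skor1 (0.889 against 0.0545) followed Pax8 upward, and Pcp4 had 0 UMIs against 325, at least 32.2-fold lower. Of 8 neuronal genes Nefl, Tubb3 and Stmn2 were lower, Tubb3 at 26.0 against 36.9.

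Cells were also split by Pax5. In CNS Neuron (63 positive cells, median 11772 UMIs, and 469 negative, 10679), Pax2 was at 5.89, 9.18, 9.97 and 9.10 against 1.43, 1.82, 1.32 and 2.08 (log2 2.35, SE 0.14, adjusted p = 3.67e-08) and Pax8 at 1.96, 1.52, 1.57 and 1.44 against 0.132, 0.193, 0.102 and 0.166 (log2 3.39, SE 0.25, adjusted p = 4.92e-07). Pax3 was lower, at 0.179, 0.240, 0.150 and 0.465 against 1.29, 1.98, 1.56 and 1.84 (log2 -2.62, SE 0.26, adjusted p = 9.14e-06). For these 3 of 5 members tested the arms did not overlap, in a split where 1.88% of 8019 genes were higher and 1.52% lower. En1, the engrailed gene of the midbrain-hindbrain boundary, led the rise at 1.56 against 0.0671 (log2 4.48 ± 0.40 SE, adjusted p = 2.79e-06), before Dgkb (0.550 against 0.0489) and Klhl14 (1.38 against 0.123), and 4 of 6 genes of that boundary list were higher and 0 lower. Of the inhibitory list 6 of 7 were higher, and of the excitatory list 5 of 7 lower. Tlx2 and Ppp1r1c had 0 UMIs, at least 17.3-fold and 13.3-fold lower. Of 7 neural progenitor genes Sox2 and Vim were lower (median log2 -0.70, 1 without F0_9 or the block, or by DESeq2), with sums of 7.17 to 14.3 per 10000 in positive and 13.5 to 17.7 in negative arms. Dcx was the 1 of 8 postmitotic neuron genes that was higher (0 without F0_9, F1_1 or F1_mix, or by DESeq2, and 3 without F0_8), with sums of 69.3 to 92.2 against 71.8 to 84.6, and the part of these lists was not tested. The 273 calls fell to 167 without F0_9.

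In Neuroectoderm/Glia (96 Pax5-positive cells, median 11662.5 UMIs, and 406 negative, 11376.5), Pax2 was at 6.69, 3.79, 3.36 and 2.34 against 1.49, 0.928, 0.709 and 1.16 (log2 1.89, SE 0.18, adjusted p = 6.8e-05), and Pax8 at 2.85, 1.64, 1.51 and 1.48 against 0.619, 0.331, 0.116 and 0.386 (log2 2.36, SE 0.21, adjusted p = 4.06e-05), again without overlap. These were 2 of 3 members tested, with 0.871% of 7459 genes higher and 0.858% lower. En1 (1.43 against 0.159) led upward, with the interneuron gene Evx1 (0.304 against 0.0579) and the kinase gene Stk32a (0.550 against 0.0936). Of 4 midbrain-hindbrain genes, En1 and En2 (0.645 against 0.129) were higher and Lmx1b, with 2 UMIs against 146, was lower (not without F0_9). Of 7 inhibitory genes 5 were higher, and of 7 excitatory genes 3 were lower; the cortical gene Tbr1 had 0 UMIs against 223, at least 17.5-fold lower. Without F0_9 the 129 calls fell to 67.

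**Figure D3:**
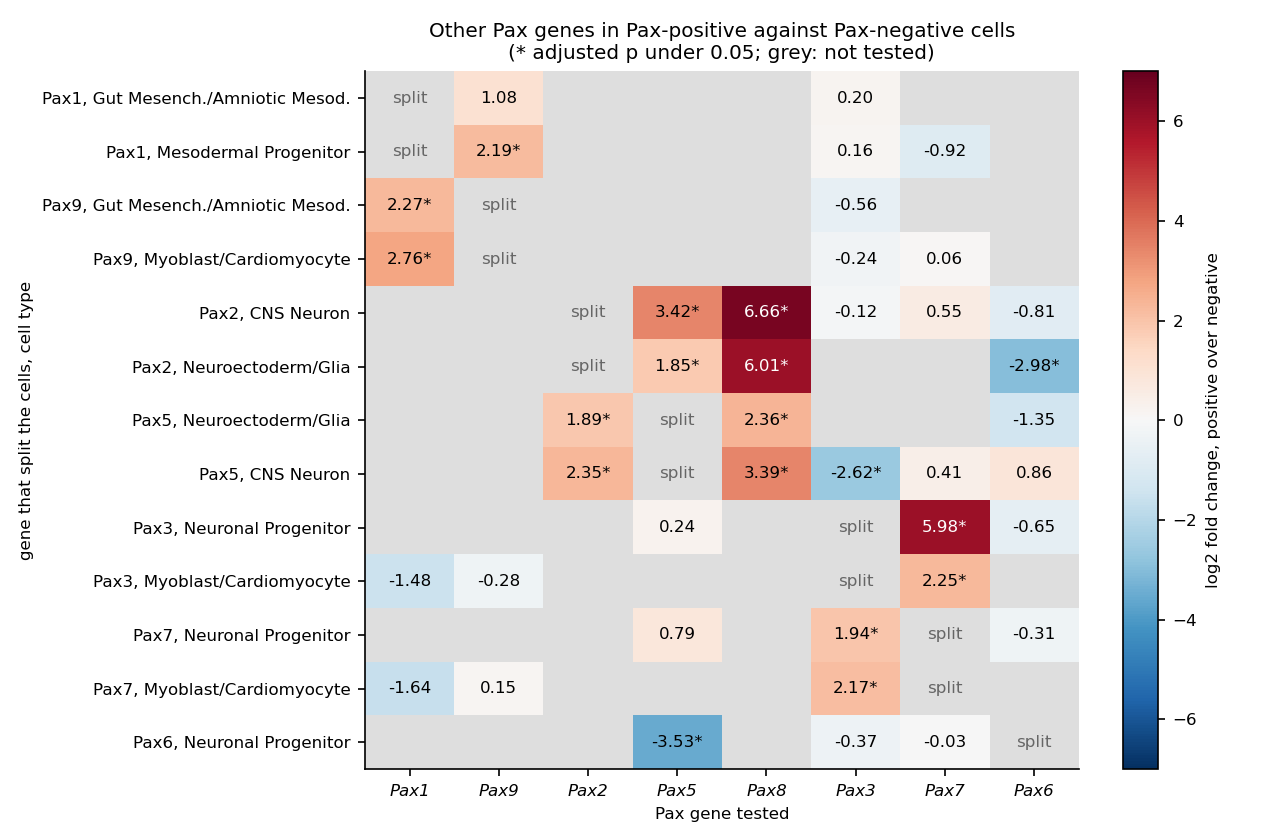
log2 fold change of each other Pax gene (columns) in cells with against cells without the gene that split them (rows, with the cell type); an asterisk marks an adjusted p under 0.05 and grey a gene not tested. The called red cells join relatives, up to 6.66 for Pax8 in Pax2-positive CNS Neuron cells, while red cells without an asterisk include pairs of other members; the 3 called blue cells are Pax6 in the Pax2 split of Neuroectoderm/Glia, Pax3 in the Pax5 split of CNS Neuron and Pax5 in the Pax6 split of Neuronal Progenitor.

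Pax3 and Pax7, the pair of the dorsal neural tube and of muscle progenitors, were highest in Neuronal Progenitor among the types of usual depth. Pax3 was there at 2.05, 3.45, 2.85 and 2.94 (2.82 ± 0.576; 47.9% of 597 cells, 29.3% when thinned), above every suspension of the next type, CNS Neuron (1.5 ± 0.235; 30.3% of cells). Ependymal Cell followed at 0.9 ± 0.436, Myoblast/Cardiomyocyte at 0.760 ± 0.119 (0.937, 0.722, 0.703 and 0.678; 27.8% of cells) and Mesodermal Progenitor at 0.626 ± 0.239, with overlap between neighbours. Neuroectoderm/Glia, where Pax2 was high, was at 0.032, with Pax3 in 3.19% of its cells (median 11437.5 UMIs), and red blood cells were at 0.0119 (exact 95% interval 0.00478 to 0.0245).

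Pax7 was at 0.183, 0.540, 0.334 and 0.369 in Neuronal Progenitor (0.357 ± 0.147; 24.5% of cells, 6.87% when thinned), at 0.284, 0.222, 0.109 and 0.270 in Myoblast/Cardiomyocyte (0.221 ± 0.0792; 15.7%, 3.88% when thinned) and at 0.143 ± 0.0425 in CNS Neuron (9.77%). F0_8 was lowest of the 4 in the first and highest in the second, and the types overlapped. The patterns most like Pax3 were those of Peg12 (r = 0.94), Pax7 (0.93) and Sall1 (0.92), and those most like Pax7 were Pax3, Prelid3a (0.89) and Foxred2 (0.89).

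In Neuronal Progenitor, Pax7 was found almost entirely inside the Pax3 cells. Of 146 Pax7 cells 142 held Pax3 (97.3%, exact 95% interval 93.1% to 99.2%), against 31.9% of cells without Pax7. Thinned to 2000 UMIs the shares were 80.5% of 41 and 25.5% of 556 cells, higher in 4 of 4 suspensions. Seen from the other gene, 49.7% of 286 Pax3 cells held Pax7 and 1.29% of the rest. Between 286 Pax3-positive and 311 negative cells (medians 14119.5 and 12904 UMIs), Pax7 was at 0.549, 0.939, 0.649 and 0.633 against 0.0152, 0.013, 0 and 0.00952, without overlap (log2 5.98, SE 0.34, adjusted p = 1.91e-07). Pax6, at log2 -0.65, missed the threshold (adjusted p = 0.0789). Pax7 was the 1 of 3 members tested that passed, beside 2.29% of 9282 genes higher and 2.96% lower. By the Pax7 split (146 positive cells, median 14491 UMIs, and 451 negative, 13099), Pax3 was at 6.69, 6.47, 6.04 and 6.15 against 1.32, 2.05, 1.45 and 1.76, again without overlap (log2 1.94, SE 0.10, adjusted p = 2.8e-09). It was 1 of 3 members tested, beside 1.45% of 9050 genes higher and 2.07% lower.

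Dorsal genes went with Pax3 and ventral ones against it. Of 10 genes of the dorsal neural tube list 7 were higher and 0 lower (median log2 1.55; 4 higher by DESeq2), among them Msx1 (0.635 against 0.169), Zic1 (2.30 against 0.760) and the progenitor gene Olig3 (0.263 against 0.0822). All 5 tested genes of the ventral list were lower (median log2 -6.19): Shh, the floor plate signal, had 3 UMIs against 226, the progenitor factors Nkx6-2 and Olig2 had 1 against 146 and 1 against 120, Nkx6-1 had 2 against 100, and Ptch1, the receptor and target of that signal, was at 0.641 against 1.25 (log2 -0.98 ± 0.12 SE, adjusted p = 0.000177). All 6 forebrain genes tested were lower, with Lhx2 at 0.252 against 3.20. Of 7 genes of differentiating neurons 5 were lower, Dcx at 0.110 against 0.465. The leading genes were Msx3 (1.57 against 0.019; log2 6.29 ± 0.25 SE, adjusted p = 1.55e-08), the adhesion gene Kirrel2 (104 UMIs against 1) and Pax7, and downward Nkx2-1 (1 UMI against 241), a factor of the ventral forebrain, and Nkx6-2.

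Pax7-positive cells showed fewer dorsal calls. Of the same 10 dorsal genes 3 were higher (Zic1 and Gsx1 among them; 1 without F1_1, without the block or by DESeq2) and 1 lower, with a median log2 of -0.44: Lmx1a, a roof plate gene, had 0 UMIs against 177, at least 20.6-fold lower. The difference from the Pax3 split was not tested. All 6 forebrain genes were lower (3 without the block), and of the ventral list Shh (0 UMIs against 229, at least 26.7-fold lower) and Ptch1, the 2 tested, were lower (1 without the block). Smoc1 (1.38 against 0.279), Mab21l2 (0.726 against 0.146) and the adrenergic receptor gene Adra1a (0.461 against 0.103) led upward, and Nkx2-1 had 0 UMIs against 242, at least 28.2-fold lower. The 318 calls fell to 192 without F1_mix.

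In Myoblast/Cardiomyocyte, which held Pax3 in 27.8% and Pax7 in 15.7% of cells, the pair also went together. Of 101 Pax7 cells 73 held Pax3 (72.3%) against 19.5% of the rest; thinned, 9 of 25 did (36.0% against 9.21%), a higher share in 1 of the 2 suspensions that could be compared. Between 179 Pax3-positive and 465 negative cells (medians 20600 and 18015 UMIs), Pax7 was at 0.468, 0.530, 0.226 and 0.689 against 0.188, 0.0937, 0.0568 and 0.0969, without overlap (log2 2.25, SE 0.25, adjusted p = 0.00191). It was 1 of 3 members tested, beside 1.03% of 9508 genes higher and 1.05% lower. Between 101 Pax7-positive and 543 negative cells (medians 20600 and 18191 UMIs), Pax3 was at 1.44, 1.96, 2.09 and 2.43 against 0.776, 0.413, 0.538 and 0.266, without overlap (log2 2.17, SE 0.24, adjusted p = 3.56e-05). That was 1 of 3 members tested, beside 3.78% of 9162 genes higher and 2.73% lower; Pax1, at log2 -1.64, missed the threshold (adjusted p = 0.0596).

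The skeletal muscle list was higher with both genes. With Pax3, 6 of 10 were higher and 0 lower (median log2 1.03; 3 higher without F1_mix): Myf5, the earliest muscle determination gene, was at 0.429 against 0.0427 (log2 3.46 ± 0.31 SE, adjusted p = 0.000578), Lbx1 and Met, genes of migrating limb muscle precursors, at 0.191 against 0.0218 and 0.402 against 0.0826. Myod1 and Myog, of the committed myoblast, did not pass. With Pax7, 8 of 9 were higher (median log2 1.44), Myf5 at 0.642 against 0.0706, Msc at 0.964 against 0.119 and Myod1 at 1.30 against 0.487. Cardiac genes were lower, 2 of 3 with Pax3 (1 without F0_9, without F1_mix or without the block) and 3 of 3 with Pax7, where Hand2 had 0 UMIs against 469, at least 32.6-fold lower. Of 9 sclerotome and cartilage genes 5 were lower and 1, Meox1, higher in each split; without F1_mix 1 was lower with Pax3, and Meox1 was not called in either split without F1_mix or the block. Sox9 was at 0.580 against 1.21 with Pax3 and 0.521 against 1.12 with Pax7.

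Neural crest genes moved in the Myoblast/Cardiomyocyte splits as well. With Pax3, 2 of 6 tested were higher, among them Sox10, of crest-derived glia, at 0.351 against 0.0763 (0 higher without F1_mix, 1 without F1_1 or the block, 4 without F0_9), and the list summed to 1.38 to 2.66 per 10000 in positive and 0.752 to 1.55 in negative arms. With Pax7, 4 of 6 were lower and Erbb3 higher; the lower count was 2 without F0_9 or the block and 0 without F1_1, and Erbb3 was not called without F1_mix, and the list summed to 0.544 to 1.41 against 1.16 to 1.66. Of 7 neural progenitor genes 4 were higher with Pax3 (2 without F1_mix), Fabp7 at 1.55 against 0.308 and Sox2 at 0.237 against 0.0481. Red blood cell genes summed to 0.895 to 248 in Pax3-positive and 0.977 to 1.21 in negative arms, and to 0.947 to 1.26 in Pax7-positive and 1.07 to 91.6 in negative arms, with 4 of 6 called lower (0 without F0_9, without the block or by DESeq2). The part of these cells in the other differences was not tested. The leading genes were Myf5, Plch1 (0.360 against 0.0313) and the Notch ligand gene Dll3 (0.204 against 0.0216) with Pax3, against Lhx2 (0.05 against 0.478) and Tbx5 (0.0219 against 0.202), both limb regulators. With Pax7 they were Fgf5 (0.175 against 0.0142), Fap (1.43 against 0.136) and Kcne1l (1.44 against 0.135), against Hand2 and the distal limb gene Hoxd13 (2 UMIs against 397). Calls fell from 198 to 129 without F1_1 and 62 without F1_mix in the Pax3 split, and from 596 to 356 without F1_mix in the Pax7 split.

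Pax6, a regulator of eye, forebrain and neural tube, was at 1.15, 0.925, 0.721 and 0.546 in Neuronal Progenitor (0.835 ± 0.260; 45.4% of 597 cells, 14.6% when thinned). Every suspension was above every one of the next type, Ependymal Cell (0.296 ± 0.161), and Neuroectoderm/Glia (0.281 ± 0.117), CNS Neuron (0.223 ± 0.0867) and Epithelial Cell (0.193 ± 0.144) followed with overlap. Neuronal Progenitor held 58.3% of all Pax6 UMIs. The patterns most like it were those of Nkx2-1 (r = 0.96), Hap1 (0.95) and the progenitor gene Sox21 (0.95). Pax6 overlaps Elp4 by 1091 bases in the RefSeq annotation (Pax6 at chr2:105668896-105698410); Elp4 was at a log2 fold change of 0.39 in Pax6-positive Neuronal Progenitor cells and did not pass (adjusted p = 0.149).

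In Neuronal Progenitor, 271 Pax6-positive cells (median 14022 UMIs) were compared with 326 negative ones (13217.5). Pax5 was lower, at 0.0192, 0.0557, 0.00933 and 0.0207 against 0.252, 0.223, 0.317 and 0.420, 10 UMIs against 144, without overlap (log2 -3.53, SE 0.39, adjusted p = 0.000401). Pax3 (log2 -0.37, adjusted p = 0.733) and Pax7 (-0.03, adjusted p = 0.990) did not pass, although Pax3 was found in 41.7% of Pax6 cells and 53.1% of the others, a lower share in 4 of 4 suspensions (26.4% and 29.8% when thinned, lower in 3 of 4). Pax5 was thus the 1 of 3 members called, beside 0.446% of 9197 genes higher and 0.522% lower. Genes of the midbrain-hindbrain boundary were lower with Pax6, 4 of 8 and 0 higher (median log2 -1.48): En2 was at 0.0324 against 0.402 (log2 -3.58 ± 0.37 SE, adjusted p = 0.000265), En1 at 0.0104 against 0.156, Cnpy1 at 0.0706 against 0.419 and Otx2 at 0.407 against 1.28. Of 6 forebrain genes Lhx2 (2.59 against 1.03) and Emx2 (0.570 against 0.232) were higher (4 of 7 without F1_mix, 0 without the block). Ptchd4 (0.244 against 0.0555), the forebrain and spinal cord gene Dmrt3 (0.211 against 0.0611) and the guidance gene Sema3a (0.430 against 0.128) led upward; Nkx2-4 had 0 UMIs against 96, at least 28.4-fold lower, and Shh had 4 against 225. With cells thinned to 2000 UMIs, edgeR called 0 of 2833 genes in this split, and 147 had an unadjusted p under 0.05.

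**Figure D4:**
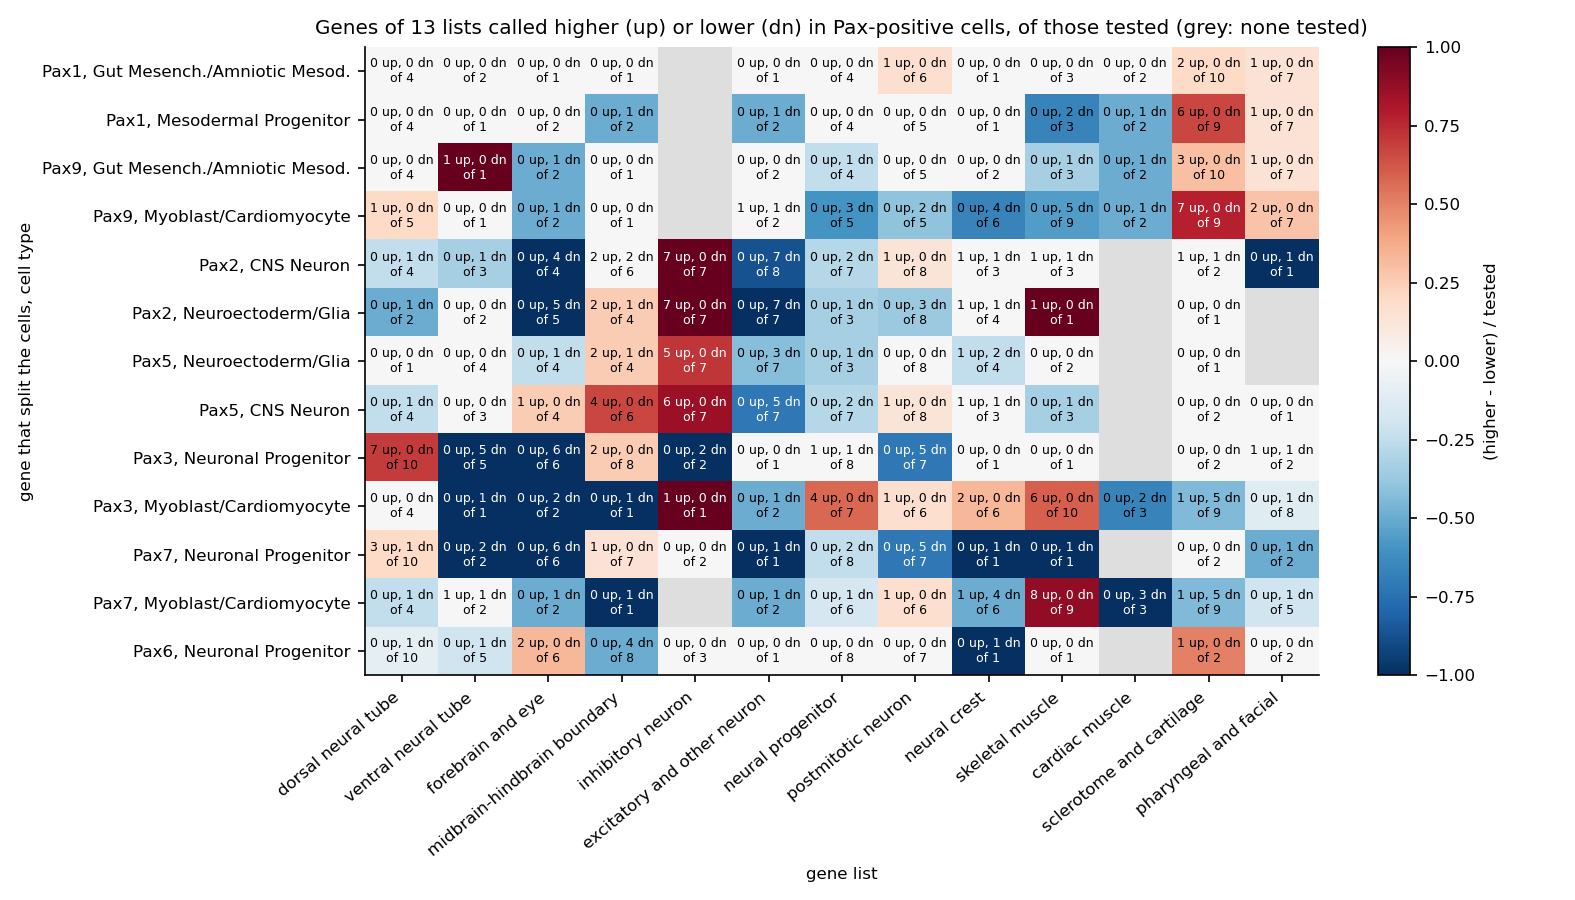
Number of genes called higher (up) or lower (dn) in Pax-positive cells, of those tested, for 13 gene lists (columns) in the 13 splits (rows); the colour is the difference of the counts divided by the number tested, and grey marks a list with no gene tested. The inhibitory neuron column is red in the Pax2 and Pax5 splits (7, 7, 5 and 6 of 7 genes higher), and the skeletal muscle column is red with Pax3 and Pax7 and blue with Pax9 in Myoblast/Cardiomyocyte.

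Among the lists for organs where Pax genes also act, few genes could be tested in these types. Of the nephric list, Lhx1, which the inhibitory list also holds, was higher in all 4 Pax2 and Pax5 splits (not in the Pax5 split of Neuroectoderm/Glia without F0_9), whereas Gata3 (2 UMIs against 405) and Emx2 (4 against 159), the other 2 of the 3 tested in the Pax2 split of Neuroectoderm/Glia, were lower (Emx2 not without F0_8, adjusted p = 0.0641 by edgeR). Of the B cell list, the lineage of Pax5 in the adult, Ebf1 was the gene tested, and it was lower in Pax5-positive CNS Neuron cells (10.9 against 16.3, adjusted p = 0.0474), a call lost without F0_8, F1_1, F1_mix or the block and by DESeq2. Of the cell cycle list 1 gene was lower in each of the Pax2 split of CNS Neuron, the Pax3 split of Neuronal Progenitor and the Pax7 split of Myoblast/Cardiomyocyte, and each of these calls was lost without F1_mix; 0 were called higher by edgeR in the 13 splits.

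Pax UMIs were also found in the shallow types, from far fewer counts. Pax3 was at 3.32, 3.16, 7.80 and 4.28 in Foregut (4.64 ± 2.16; 178 UMIs, 29.8% of 225 cells), with Pax7 at 0.958 ± 0.488 and Pax6 at 1.11 ± 0.801. Midgut, whose cells carried the neuronal genes above, held Pax2 at 3.29, 2.66, 2.82 and 4.13 (3.22 ± 0.660; 135 UMIs, 15.9% of 333 cells) and Pax8 at 0.644 ± 0.181, and 13 of its 20 Pax8 cells held Pax2 (65.0% against 12.8%). Hepatocyte (median 1674 UMIs per cell) was at 1.24 ± 0.171 for Pax3, 0.323 ± 0.203 for Pax9 and 0.262 for Pax1. Barcodes outside the used cells with 100 to 300 gene UMIs were at 1.76 for Pax3, above the Hepatocyte mean. Those with 1 to 100 gene UMIs were at 0.716 for Pax3, below that mean. The barcodes with 100 to 300 gene UMIs were at 1.51 for Pax2, 0.261 for Pax8, 0.239 for Pax7, 0.238 for Pax6, 0.144 for Pax1 and 0.135 for Pax9. The part of such RNA in the levels of the shallow types, the Pax3 of Hepatocyte included, was not tested. Some of these levels rested on few cells: 52.9% of the Pax2 UMIs of Foregut came from a single barcode.

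Founders were compared with F1 suspensions in the 13 types where every suspension had at least 20 cells, fitting all genes of a type with edgeR's quasi-likelihood test (2 suspensions against 2). The founders had been electroporated and microinjected as fertilized eggs. Generation cannot be told apart here from such handling or from differences between these few embryos. Of 47 pairs of a Pax gene and a type with enough counts, 3 were called, against 0.763% of all 99228 pairs of a gene and a type; 18 of the 47 had an unadjusted p under 0.05, as did 10.2% of all pairs. The founders lay wholly above or below the F1 suspensions in 20 pairs, 14 of them above; over all genes 40.6% of pairs did not overlap, with 20.7% above.

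Pax1 in Chondrocyte was at 0.350 and 0.315 in F0_8 and F0_9 and at 0.0896 and 0.0345 in F1_1 and F1_mix, so the founders were higher without overlap (log2 2.42, SE 0.44, adjusted p = 0.0187). It was found in 11.4%, 9.76%, 5.36% and 4.29% of cells. The F1 values rested on 7 and 3 UMIs, and the call was lost without F0_8 (adjusted p = 0.115), F0_9 (0.0614) or F1_mix (0.0772) and with no filter (0.394), while DESeq2 gave no adjusted p (unadjusted p = 0.0018). The sclerotome and cartilage list in the same cells summed to 11.03, 11.6, 7.17 and 8.80 per 10000, also higher in both founders; its part in the difference was not tested. Pax9 in Mesodermal Progenitor was at 0.519 and 0.379 against 0.212 and 0.207 (log2 1.10, SE 0.20, adjusted p = 0.0141), and the call was lost without F0_8 (0.191) and by DESeq2 (0.232). The same list was at 9.78, 8.598, 6.41 and 8.23 there.

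Pax5 in the shallow Midgut was lower in founders, at 0 and 0.443 against 1.16 and 2.80 (log2 -3.64, adjusted p = 5.62e-05), from 0 and 2 UMIs against 14 and 36; the call was lost without F0_8 (adjusted p = 0.438) or F1_mix (0.989), and DESeq2 gave no adjusted p (unadjusted p = 0.0634). With cells under 5% mitochondrial UMIs, 9 types could be fitted, Midgut not among them, and the other 2 calls passed. The neuronal list of these cells was also lower in founders, at 30.4 and 31.0 against 38.1 and 45.5, and its part was not tested. Other differences without overlap missed the threshold. In Epithelial Cell, Pax2 was lower in founders (log2 -2.29, adjusted p = 0.0884) and Pax6 higher (0.301 and 0.332 against 0.0887 and 0.0494; log2 2.09, adjusted p = 0.261), in 29 to 53 cells per suspension. Pax6 in Neuronal Progenitor was at log2 0.68 (adjusted p = 0.125) and Pax8 in Neuroectoderm/Glia at 0.71 (adjusted p = 0.328).

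**Figure D5:**
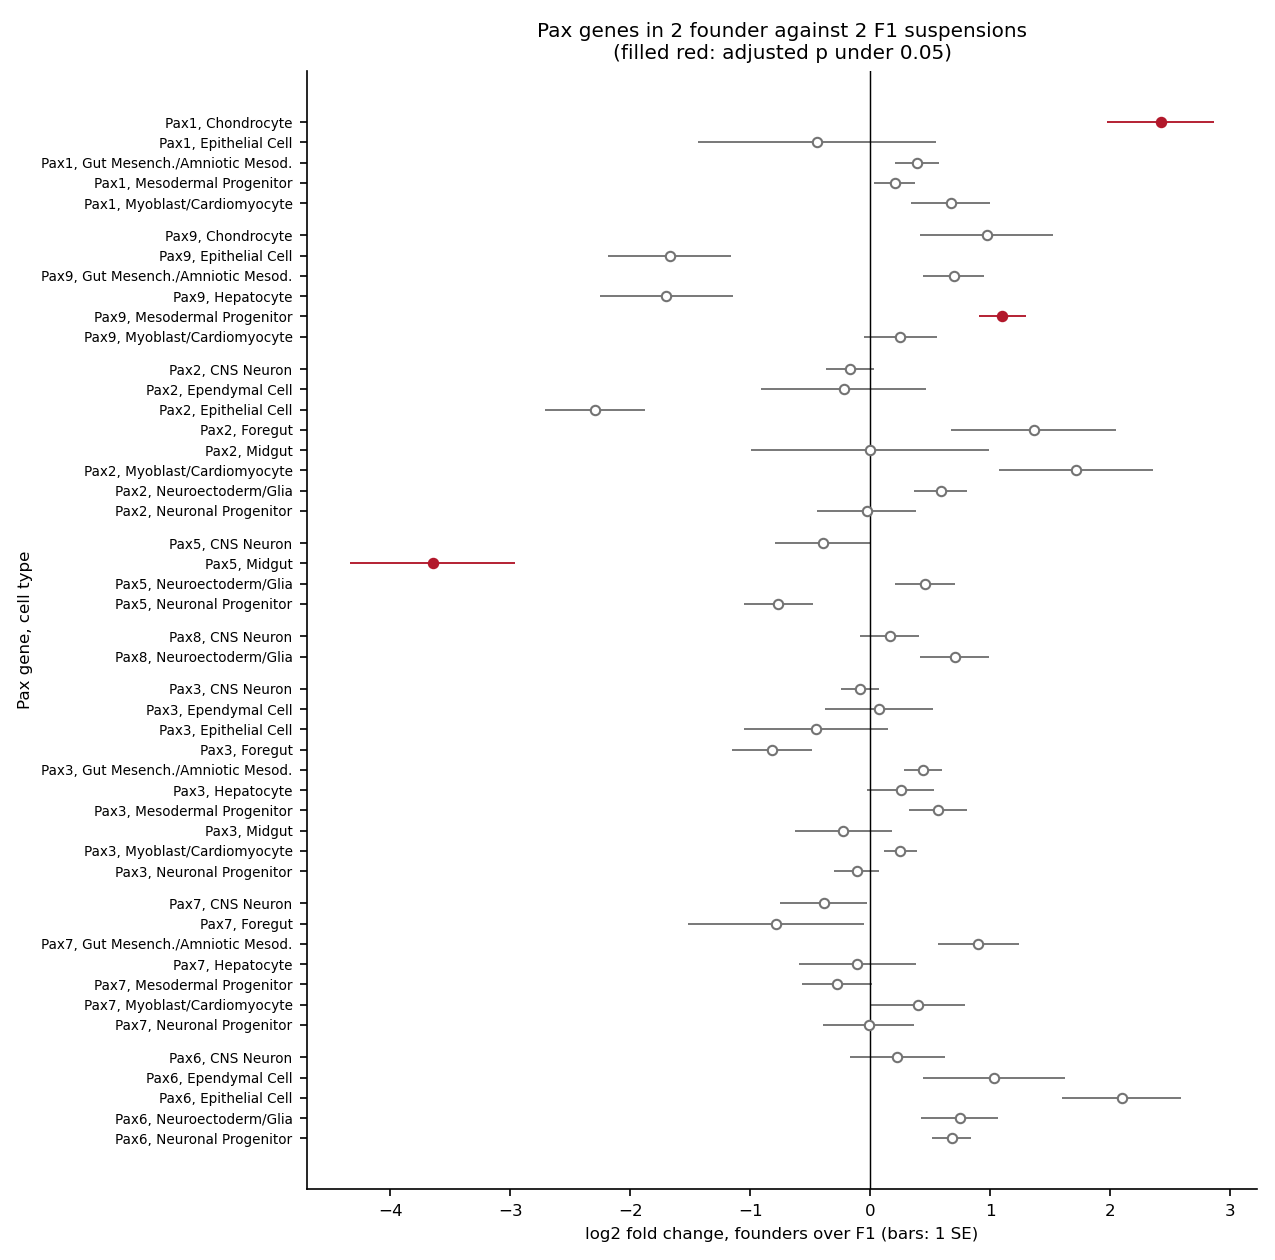
log2 fold change of each Pax gene, founders (F0_8 and F0_9) over F1 (F1_1 and F1_mix), for the 47 pairs of gene and cell type tested (y axis), with bars of 1 SE. The 3 filled points passed the test: Pax1 in Chondrocyte (2.42), Pax9 in Mesodermal Progenitor (1.10) and Pax5 in Midgut (-3.64).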

How the data were processed

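Single cells of the 4 suspensions were measured in 1 3′ gene expression library. The authors aligned the reads with Cell Ranger (version 7.2.0 per the file headers) to mm10 with EGFP added, and the deposited matrices hold raw UMI counts per gene and barcode, per suspension and for all barcodes. Cell types and the list of used cells come from the authors' deposited table (other files and its other 18 columns were not used); their processing notes name Seurat, and the methods describe removal of free RNA and of doublets and noise reduction with RECODE, whereas the counts used here are the raw ones.

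Of 6006 barcodes in the 4 matrices, the 5678 in that table were kept, and no further filter or doublet caller was applied. The members and the 22 gene lists were chosen with earlier results of these data known. Members were matched by symbol and sums were made per suspension and cell type, or per arm of a split. Tests used edgeR 4.0.16 (TMM, filterByExpr, quasi-likelihood, threshold 0.05) in R 4.3.3, with DESeq2 1.42.0 as an alternative; other steps used Python 3.11.15 with numpy 2.4.6, pandas 2.3.3 and scipy 1.17.1. EGFP and oligo features were left out of the fits. In the splits the suspension is the block, since both arms come from the same embryos.

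Named genes were the 8 members, the called genes of the lists, and per split the 3 genes with the largest rise and the 2 with the largest fall among calls with 1 direction in all 4 suspensions; other list genes given with values were examples among those called. Some genes that this rule names are not reported here. Intervals are exact (Poisson, Clopper-Pearson) and cover counting error. In simulated data made from the Pax3 split of Neuronal Progenitor, all genes changed by 2 on the log2 scale were recovered. Those data had a small fixed spread and no differences between suspensions, and only well-counted genes were changed. Recovery of sparse genes was therefore not covered, and that of smaller changes and of the founder comparison is not given here. Alternatives were other size factors, DESeq2, no filter, no block, thinning to 2000 UMIs, 2 or more UMIs, cells under 5% mitochondrial UMIs, other denominators and leaving out each suspension.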

Additional observations from a re-analysis of the deposited data

Results flagged for a closer look

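Of 24 groups of 4 suspensions (each member in its 3 highest types of usual depth), 2 held a suspension far from the others, where chance gives about 1 group in 20. Pax1 in Mesodermal Progenitor was lowest in F1_1, at 0.409 per 10000, and Pax8 in Ependymal Cell was highest in F1_mix, at 0.144, where the 4 suspensions held 8 UMIs in all.

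Of 292 genes compared between the 2 types of a split, 11 moved one way in all suspensions of one type and the opposite way in all of the other, and these differences were not tested. In the Pax3 split, 5 did so between Myoblast/Cardiomyocyte and Neuronal Progenitor: Dcx was at a log2 fold change of 0.63 and -2.05, Elavl4 at 1.17 and -1.35, Eya1 at 1.01 and -0.98, Map2 at 0.37 and -0.85, and Zic2 at -1.55 and 1.04. In the Pax7 split of the same types, Dcx was at 1.13 and -1.88, Eya1 at 1.39 and -1.71 and Hes1 at 0.54 and -0.77. In CNS Neuron and Neuroectoderm/Glia, Stmn2 was at 0.20 and -0.49 with Pax2 and Ngfr at 1.01 and -0.62 with Pax5. Hba-x, a globin gene, was at 0.40 in Gut Mesenchyme/Amniotic Mesoderm and -0.66 in Mesodermal Progenitor with Pax1.

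Barcodes outside the used cells, with 100 to 300 gene UMIs (53821 of them), held Pax transcripts as well. Pax3 was there at 1.76 per 10000 gene UMIs, Pax2 at 1.51, Pax5 at 0.315, Pax8 at 0.261, Pax7 at 0.239, Pax6 at 0.238, Pax1 at 0.144 and Pax9 at 0.135.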

How the results depend on the processing

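Of the 18 calls of another member in a split, DESeq2 size factors, no filter, no block, and leaving out F0_9, F1_1 or F1_mix kept 18; the DESeq2 Wald test and leaving out F0_8 kept 17, the lost one being Pax1 in Pax9-positive Gut Mesenchyme/Amniotic Mesoderm. All 12 that could be refitted with 2 or more UMIs were kept, and of 4 in the 3 splits that could be fitted at 2000 UMIs, 2 could be refitted and both were kept, for a total of 2 calls; the other splits had too few cells. Calls over all genes of the 13 splits numbered 3297, 1807 by the DESeq2 Wald test, 7018 with no filter and 2050 without the replicate block; both arms of a suspension come from the same embryos, so the pairing is part of the design. In the 3 thinned splits they fell from 995 to 230, where fewer genes were tested. Thinning moved the level of Pax5 in Neuroectoderm/Glia from 0.459 to 0.601; the cause was not tested. Founders against F1 gave 757 calls over all genes, 433 by DESeq2, 3167 with no filter and 554 to 1606 when 1 suspension was left out, and the lone sample is then assumed to vary like the other groups. Of the members, 3 were called, 0 by DESeq2 (7 at an unadjusted p under 0.05, and 5 of 47 with no adjusted p), 11 with no filter and 1 to 6 without 1 suspension. When 1 suspension was left out, the log2 fold change of Hba-x in Pax7-positive Myoblast/Cardiomyocyte cells ran from -5.52 to 0.11, that of Hba-x in Pax9-positive Myoblast/Cardiomyocyte cells from -4.85 to 0.48 and that of Hbb-y in Pax9-positive Myoblast/Cardiomyocyte cells from -4.62 to 0.098; the highest values are without F0_9, and none was then called. No split was made in the 4 types of low depth.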

Other observations

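Pax4, the relative of Pax6 in the endocrine pancreas, had 2 UMIs in all 5678 cells.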
